A study of Mus musculus with 4 samples.

Results

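The 10 genes described here encode some of the HSP70 and HSP110 chaperones of the mouse liver and some of the co-chaperones that work with them: *Hspa1a*, *Hspa1b*, *Hsph1*, *Dnajb1*, *Dnaja1*, *Bag3*, *Hspa8*, *Hspa4*, *Hspa4l* and *Hspa9*. They were found by symbol among the 35739 genes of the expression table, and all 10 had a row. HSP70 proteins bind stretches of unfolded protein and release them in a cycle driven by ATP. J-domain proteins (*Dnajb1*, *Dnaja1*) deliver the substrate and stimulate ATP hydrolysis, whereas HSP110 proteins (*Hsph1*, *Hspa4*, *Hspa4l*) and BAG proteins (*Bag3*) exchange the bound nucleotide. Some of these genes are known to be switched on by heat shock factor 1 (HSF1) when unfolded protein accumulates, and others are transcribed in unstressed cells. From this textbook knowledge, *Hspa1a*, *Hspa1b*, *Hsph1*, *Dnajb1*, *Dnaja1* and *Bag3* (6 genes) were classed as inducible, and *Hspa8*, *Hspa4*, *Hspa4l* and *Hspa9* (4 genes) as constitutive. The list was drawn up with the TPM of *Usp21* KO and WT livers in these same libraries already known, so that the genes count as selected on this difference. Their differences are therefore given as a description, without a p-value for any of them.

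An Illumina MiSeq was used to sequence RNA from liver tissue, with 2 libraries from WT mice (numbered 2 and 3) and 2 from *Usp21* KO mice (numbered 1 and 3). *Usp21* encodes a protease that removes ubiquitin from proteins. In the KO mice, exons 3 and 4 of *Usp21* were removed through loxP sites by crossing with mice that express Cre recombinase, so that the allele was constitutive and every tissue carried it. The allele was made in embryonic stem cells of a strain other than B6, and the mice were WT and KO littermates whose background mixed B6 with that strain. They were aged 10 to 11 weeks and were kept on a normal diet under a cycle of equal light and dark, without any heat or drug treatment named in the sources used here. Neither the sex of these mice nor the time of day at which the livers were taken is given there. *Usp21* itself was lower in both KO livers (1.64 and 2.93 TPM) than in both WT livers (4.07 and 6.29 TPM; log2 fold change −0.92, SE 0.33, adjusted p = 0.464, limma), and the exons outside the deletion also count towards these values.

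Levels are in TPM, an abundance scaled to the same total in every library, which corrects for the length of a transcript and so allows genes to be compared with each other. Where 4 values are listed, they are those of WT replicate 2, WT replicate 3, KO replicate 1 and KO replicate 3, in that order. A log2 fold change is the difference between the KO and WT means of log2(TPM + 1), which understates the change of genes with low levels. Its standard error (SE) comes from one limma fit over 9581 genes, those that averaged 1 TPM or more. Hepatocyte markers such as *Alb* were abundant in every library, with a summed level from 50879 to 74351 TPM. Because whole tissue was used, fewer cells of a type and less RNA per cell cannot be told apart.

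*Hspa1a* (ENSMUSG00000091971) and *Hspa1b* (ENSMUSG00000090877) encode the main stress-inducible cytosolic HSP70. In the GENCODE M21 annotation of build GRCm38, both have a single exon on the reverse strand of chromosome 17, *Hspa1a* from 34969190 to 34972156 and *Hspa1b* from 34956436 to 34959238, with 9951 bases between them. Their coding sequences were 99.6% identical, with 8 mismatches over 1923 aligned bases, whereas *Hspa1a* and the constitutive *Hspa8* were 74.7% identical. The 250 bases before their RefSeq transcription starts were also nearly the same, with 247 of 250 bases identical and differences 207, 204 and 2 bases before the start. The sequences are shown because they carry the heat shock element, the inverted repeat of GAA units that HSF1 binds, and because they show how little tells this pair of genes apart. Capitals mark a match to 2 units (GAANNTTC or TTCNNGAA, each the reverse complement of itself), and both strings are written from the reverse strand, 5′ to 3′, for chr17:34959239-34959488 (*Hspa1b*) and chr17:34972157-34972406 (*Hspa1a*).
Hspa1b: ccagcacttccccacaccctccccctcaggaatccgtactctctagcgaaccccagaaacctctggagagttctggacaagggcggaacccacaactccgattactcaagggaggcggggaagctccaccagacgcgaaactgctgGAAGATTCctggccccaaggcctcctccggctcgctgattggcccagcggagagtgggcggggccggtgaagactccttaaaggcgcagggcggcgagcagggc
Hspa1a: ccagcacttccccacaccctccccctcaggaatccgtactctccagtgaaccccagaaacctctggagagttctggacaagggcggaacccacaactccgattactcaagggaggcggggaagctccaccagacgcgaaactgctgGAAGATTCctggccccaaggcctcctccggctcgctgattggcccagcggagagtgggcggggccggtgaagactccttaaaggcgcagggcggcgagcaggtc
In both promoters, the match began at position −104, counted from the start.

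The RefSeq promoter table of GRCm38.p6, with 250 bases before and 50 bases after each start, held 8 of the 10 genes, all but *Hspa8* and *Hspa9*. A match to 2 units was found in 5 of these 8 genes, all of them inducible, and in 17.0% of the 27025 genes of the table. The match of *Dnaja1* began 124 bases before one of its starts, that of *Bag3* began 42 bases after the start, and *Hsph1* had one match 33 bases before and another 36 bases after a start. The latter overlapped with a second 2-unit match to form an element of 3 units (GAANNTTCNNGAA or TTCNNGAANNTTC), which 0.662% of the genes of the table held. Stretches of 30 bases are shown for these genes, with the element in capitals, so that the sites can be set beside the one in *Hspa1a* and *Hspa1b*. The coordinates are chr5:149636351-149636380 and chr5:149636287-149636316 (reverse strand) for *Hsph1*, chr4:40722333-40722362 (forward strand) for *Dnaja1* and chr7:128523603-128523632 (forward strand) for *Bag3*.
Hsph1, before the start: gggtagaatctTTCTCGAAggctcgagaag
Hsph1, after the start: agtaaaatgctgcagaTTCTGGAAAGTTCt
Dnaja1: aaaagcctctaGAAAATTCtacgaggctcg
Bag3: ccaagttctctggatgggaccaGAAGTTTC
The windows of *Dnajb1* (inducible), *Hspa4* and *Hspa4l* (both constitutive) held no match to these letters, which says nothing of binding by HSF1. The other motifs that were searched on both strands were TATAA, found in *Bag3* and in 28.0% of the genes of the table, the E-box CACGTG, found in *Hsph1* and in 8.09% of the genes, and CCAAT, found in *Hspa1a*, *Hspa1b*, *Hsph1*, *Dnajb1* and *Dnaja1* and in 41.1% of the genes.

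**Figure D1:**
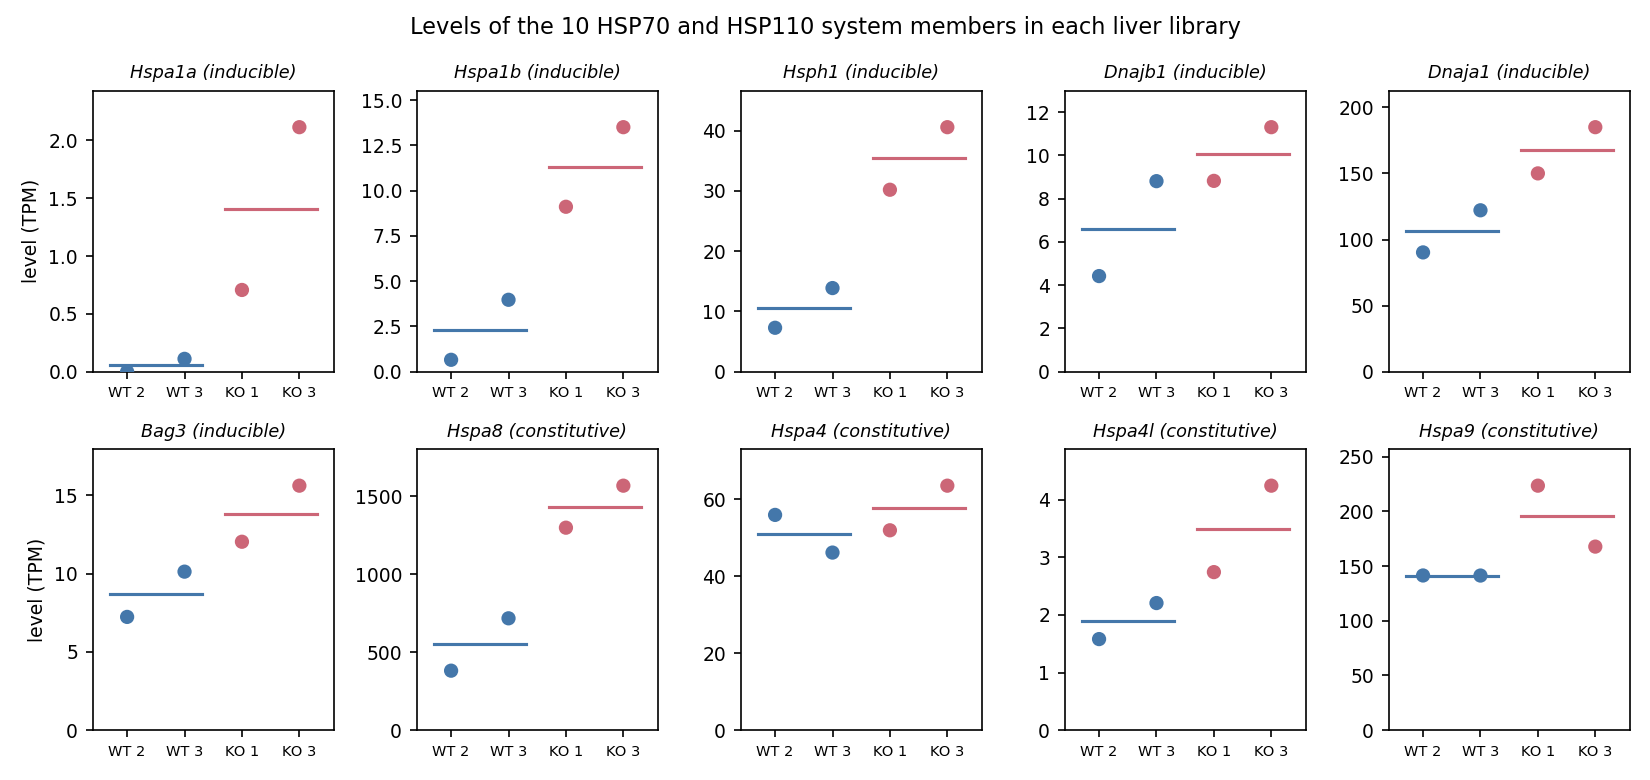
Level of each of the 10 genes in TPM (vertical axes, from 0, with a different scale per gene) in the WT (blue) and KO (red) libraries. Points are single libraries and lines are the mean of the 2 libraries of a genotype. In 9 of the 10 genes both KO points lie above both WT points, and the points of *Hspa4* overlap.

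All 10 genes had a higher mean in the KO livers, as 66.7% of all tested genes did. In 9 of them the lowest KO value exceeded the highest WT value, the exception being *Hspa4*. Of the 10, *Hspa1a*, *Hspa1b*, *Hsph1* and *Hspa8* were at least 2-fold higher on the log2(TPM + 1) scale. The median log2 fold change was 0.64 over the 10 genes, compared with 0.15 over all tested genes. The level filter was passed by 9 of the 10 genes, *Hspa1a* being the exception with a mean of 0.733 TPM over the 4 libraries. Among these 9, 8 had non-overlapping groups (34.4% of all tested genes did, in this direction), 3 were at least 2-fold higher (2.59% of all tested genes), 4 had an unadjusted p under 0.05 (8.45% in this direction) and 0 had an adjusted p under 0.05 (0.0835% in either direction, limma). As the choice of the genes used this contrast, nothing is read from these counts.

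*Hspa1b* measured 0.656, 3.97, 9.11 and 13.5 TPM. The WT mean was 2.31 ± 2.34 TPM and the KO mean 11.3 ± 3.11 TPM (SD, n = 2 each), a ratio of 4.89, and the log2 fold change was 2.08 (SE 0.54). The KO libraries were both above the WT libraries, but WT replicate 2 was far below WT replicate 3. Without WT replicate 2, the log2 fold change was 1.28, and without WT replicate 3 it was 2.87.

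*Hspa1a* was listed at 0, 0.111, 0.707 and 2.11 TPM, so that it was close to 0 in both WT livers and highest in KO replicate 3. Its log2 fold change was 1.13 (SE 0.32, fitted without the level filter) and ranged from 0.70 to 1.56 when 1 library was left out. Given these levels close to 0, the value depends on the constant added before the logarithm: it was 3.20 with a constant of 0.1 TPM and 0.33 with 5 TPM. The division of reads between *Hspa1a* and *Hspa1b* is itself an estimate, since 92.8% of the 31-base stretches of the *Hspa1a* coding sequence also occurred in another gene, compared with 7.79% of those in its 3′ UTR. The share of their joint TPM that was listed under *Hspa1b* was 100, 97.3, 92.8 and 86.5%.

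Their sum does not depend on that division. It was 0.656, 4.08, 9.82 and 15.6 TPM, with a WT mean of 2.37 ± 2.42 TPM and a KO mean of 12.7 ± 4.10 TPM (SD, n = 2 each). The log2 fold change of the sum was 2.21 (SE 0.59, fitted without the level filter). Without WT replicate 2 this value was 1.40, and without WT replicate 3 it was 3.02. The KO livers were again both above the WT livers. *Hspa1l*, the third gene of this locus with a like coding sequence, was at 0 in 3 libraries and at 0.147 TPM in WT replicate 3.

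*Hsph1* (chromosome 5, 149614287 to 149636376), the stress-inducible HSP110, measured 7.28, 13.9, 30.2 and 40.6 TPM. The lowest KO value was above the highest WT value, and the means were 10.6 ± 4.66 TPM in WT and 35.4 ± 7.34 TPM in KO livers (SD, n = 2 each). The log2 fold change was 1.70 (SE 0.33), with a range of 1.28 to 2.12 when 1 library was left out. None of the 31-base stretches of its transcripts occurred in another gene, so that its value does not share reads with a copy.

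*Dnajb1* (chromosome 8, 83608193 to 83612653), a J-domain partner of HSP70, measured 4.42, 8.81, 8.82 and 11.3 TPM. WT replicate 3 and KO replicate 1 were almost equal, and only WT replicate 2 stood clearly below the others. The log2 fold change was 0.59 (SE 0.34), and without WT replicate 2 it was 0.16.

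*Dnaja1* (chromosome 4, 40722150 to 40737149), another J-domain protein, was far more abundant, at 90.3, 122, 150 and 185 TPM. The groups did not overlap, and the means were 106 ± 22.5 TPM in WT and 168 ± 24.7 TPM in KO livers (SD, n = 2 each), with a log2 fold change of 0.66 (SE 0.22). Its processed copy *Gm15542*, which shares 11.2% of the 31-base stretches of *Dnaja1*, measured 15.5 and 22.1 TPM in KO livers and was listed at 0 in the WT ones. Summed with its copies, *Dnaja1* had a log2 fold change of 0.81.

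*Bag3* (chromosome 7, 128523616 to 128546981), which exchanges the nucleotide of HSP70 and links it to autophagy, measured 7.24, 10.1, 12.0 and 15.6 TPM. The KO libraries were the higher ones, with a log2 fold change of 0.62 (SE 0.25) that ranged from 0.40 to 0.84 with 1 library left out.

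*Hspa8* (chromosome 9, 40800984 to 40810087), the constitutive cytosolic HSP70, was the most abundant of the 10 genes, at 382, 718, 1299 and 1569 TPM. Both KO livers had more than both WT livers, with means of 550 ± 238 TPM in WT and 1434 ± 191 TPM in KO (SD, n = 2 each) and a ratio of 2.61. Although classed as constitutive, its log2 fold change of 1.45 (SE 0.33, 0.99 to 1.90 with 1 library left out) was larger than those of 4 of the 6 inducible genes. A share of 94.8% of the 31-base stretches of its coding sequence occurred in other genes, mainly pseudogenes such as *Gm15459*, but its 6 nearest copies together were listed at 0.284 to 1.14 TPM and took at most 0.0743% of the summed level.

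*Hspa4* (chromosome 11, 53259814 to 53300457), a constitutive HSP110, measured 55.9, 46.2, 51.9 and 63.5 TPM. KO replicate 1 lay between the WT libraries, and the log2 fold change of 0.17 (SE 0.20) was close to the median of all tested genes. When the libraries were scaled to their upper quartile, which moved that median from 0.15 to 0.04, the value for *Hspa4* was 0.04.

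*Hspa4l* (chromosome 3, 40744495 to 40796103), the third HSP110 gene, was low in all livers, at 1.58, 2.21, 2.74 and 4.24 TPM. Its groups did not overlap, and the log2 fold change was 0.62 (SE 0.29), or 0.38 without KO replicate 3.

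*Hspa9* (chromosome 18, 34937414 to 34954357), the HSP70 of mitochondria, measured 141.4, 141.3, 223 and 168 TPM. The WT libraries were almost equal and the KO libraries were above them but differed from each other, so that the log2 fold change of 0.45 (SE 0.20) ranged from 0.25 to 0.66 with 1 library left out. It was the only one of the 10 genes that was lower in KO replicate 3 than in KO replicate 1.

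**Figure D2:**
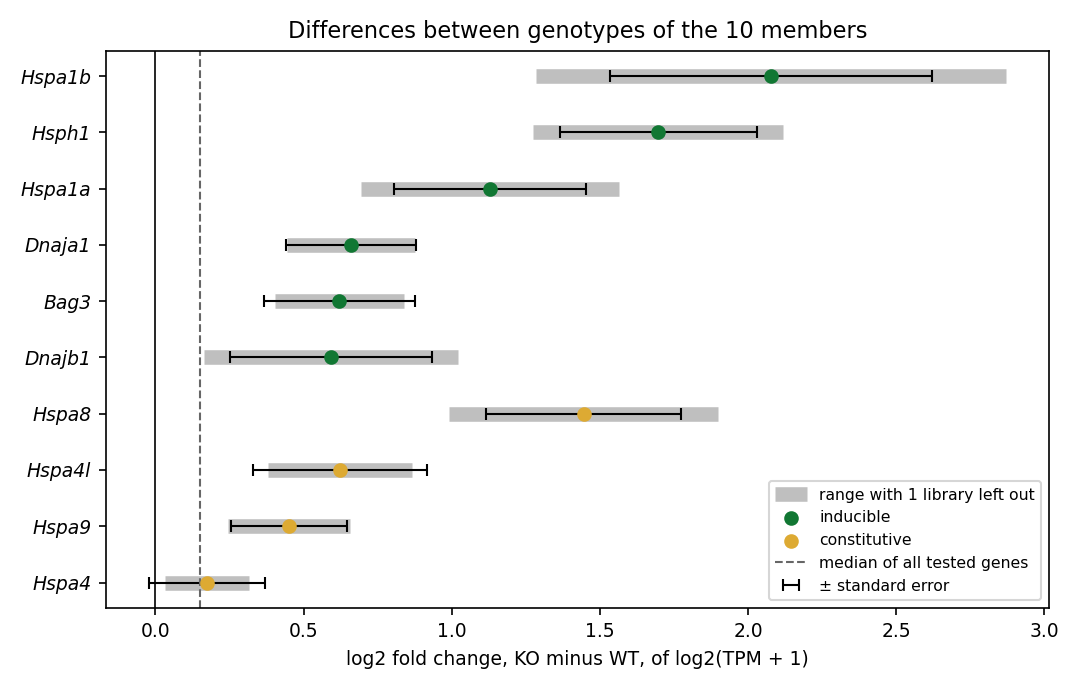
Log2 fold change (KO minus WT, horizontal axis, on log2(TPM + 1)) of each gene, inducible genes in green and constitutive genes in yellow, with the standard error of the limma fit as black bars and the range with 1 library left out as grey bars. The values run from 0.17 (*Hspa4*) to 2.08 (*Hspa1b*), and the dashed line is the median of all tested genes, 0.15.

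Inducible genes had a median log2 fold change of 0.90 and constitutive genes one of 0.54, a difference of 0.36. To set this against the libraries, the median level of the inducible genes minus that of the constitutive genes, each centred on its own mean, was taken in each library on the log2 scale. It was −0.34 and 0.04 in WT replicates 2 and 3 and −0.09 and 0.35 in KO replicates 1 and 3, so that the genotypes overlapped. The pooled SD of 0.29 belongs to these values per library and is not the spread of the difference of 0.36 between the class medians. Without KO replicate 3 the difference was 0.08, and without KO replicate 1 it was 0.60. It was 0.12 with *Hspa1a* and *Hspa1b* summed as 1 gene and 0.21 with *Hspa4l* counted as inducible. With *Dnaja1* counted as constitutive it was 0.51, and with means in place of medians it was 0.46. With *Hspa8* counted as inducible, an alternative chosen after its value was seen, the difference was 0.68. Within the classes, *Hspa8* was among the 4 genes with the largest differences, and *Dnajb1*, *Dnaja1* and *Bag3* had values close to that of *Hspa4l*.

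**Figure D3:**
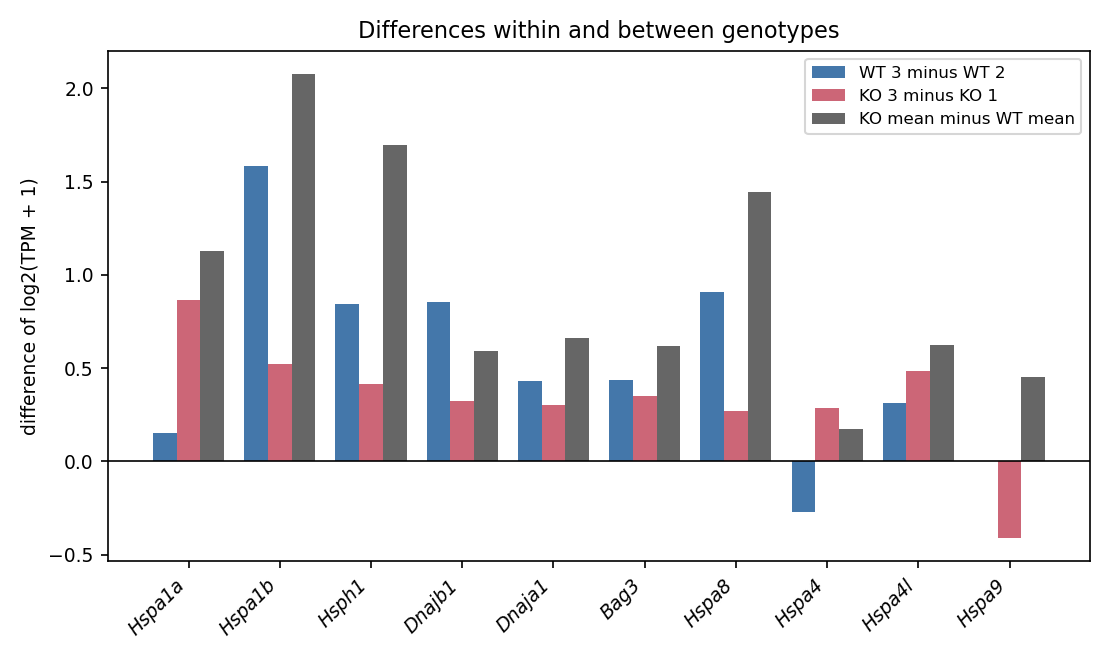
Difference of log2(TPM + 1) (vertical axis) for each gene between the WT libraries (blue), between the KO libraries (red) and between the KO and WT means (grey). For *Dnajb1* and *Hspa4* a difference within a genotype was larger than the one between genotypes, and for *Hspa1b* the WT libraries differed by 1.59.

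The libraries of one genotype also differed from each other in the same genes. From WT replicate 2 to WT replicate 3 the difference on the log2(TPM + 1) scale was 1.59 for *Hspa1b*, 0.91 for *Hspa8*, 0.86 for *Dnajb1* and 0.84 for *Hsph1*. WT replicate 3 was above WT replicate 2 in 8 of the 10 genes, and KO replicate 3 was above KO replicate 1 in 9 of 10. Over all tested genes, the corresponding shares were 49.9% and 35.2%. The full order WT replicate 2, WT replicate 3, KO replicate 1, KO replicate 3 from lowest to highest held in 8 of the 10 genes, all 6 inducible genes together with *Hspa8* and *Hspa4l*. It held in 7 of the 9 that passed the filter and in 5.88% of all tested genes. This order requires both KO libraries to be above both WT libraries, which is the contrast known when the genes were chosen. Of the 3292 tested genes with that separation, 563 had the full order. Nothing is read from these counts either. For *Hspa1b*, the difference of 1.59 between the WT livers compares with one of 2.08 between the genotypes.

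By mean level in WT livers, the order was *Hspa8* (550 TPM), *Hspa9* (141), *Dnaja1* (106), *Hspa4* (51.0), *Hsph1* (10.6), *Bag3* (8.68), *Dnajb1* (6.62), *Hspa1b* (2.31), *Hspa4l* (1.89) and *Hspa1a* (0.0554). The neighbours *Hsph1*, *Bag3* and *Dnajb1* overlapped in the WT livers, and so did *Hspa1b* and *Hspa4l*. In KO livers the order was the same except that *Hspa1b* (11.3 TPM) was above *Dnajb1* (10.1 TPM), and these neighbours overlapped. *Hspa9* and *Dnaja1* overlapped in KO but not in WT livers.

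The abundance of *Hspa8* set the total. All 10 genes together amounted to 691, 1067, 1788 and 2073 TPM, of which *Hspa8* made up 55.3, 67.3, 72.7 and 75.7%. The other 9 genes summed to 309, 349, 489 and 504 TPM, so that they too were higher in both KO livers, by a smaller ratio of 1.51 between the means. Within cytosolic HSP70 (*Hspa1a*, *Hspa1b* and *Hspa8*), the stress-inducible pair made up 0.171, 0.565, 0.7497 and 0.986% of the TPM. Even in the KO liver with the highest value, *Hspa8* was 100.4 times as abundant as the pair, compared with 582 times in WT replicate 2.

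The makeup of HSP110 differed between the genotypes as well as its sum. The sum of *Hsph1*, *Hspa4* and *Hspa4l* was 64.8, 62.2, 84.9 and 108 TPM. The share from *Hsph1* was 11.2 and 22.3% in the WT livers and 35.6 and 37.4% in the KO livers, and that from *Hspa4* was 86.3 and 74.2% compared with 61.2 and 58.6%. *Hspa4* remained the largest HSP110 transcript in all 4 livers. The ratio of *Dnaja1* to *Dnajb1* was 20.4, 13.9, 17.0 and 16.4 and overlapped between genotypes, whereas the ratio of *Hspa8* to *Hspa9* was 2.70, 5.08, 5.81 and 9.35.

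**Figure D4:**
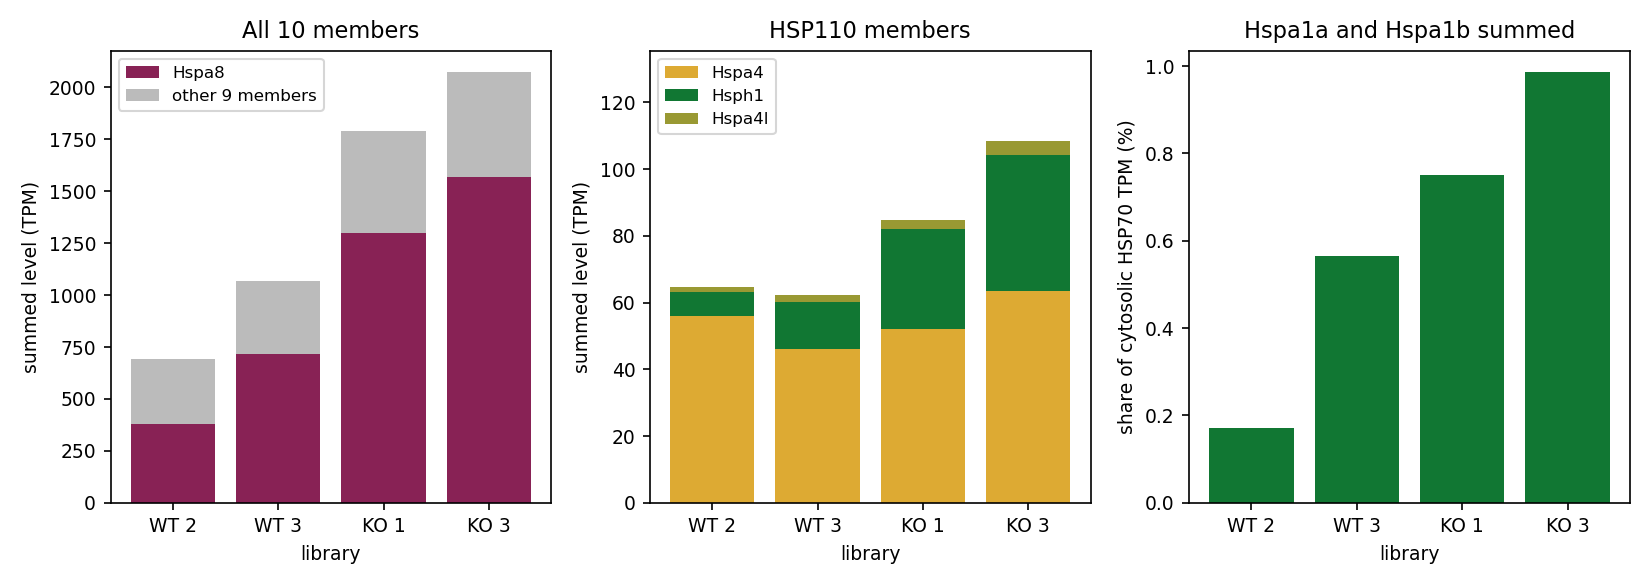
Stacked levels in TPM per library of *Hspa8* and the other 9 genes (left) and of the HSP110 genes (middle), and the share in percent of cytosolic HSP70 TPM that came from *Hspa1a* and *Hspa1b* (right). The summed level goes from 691 TPM in WT replicate 2 to 2073 TPM in KO replicate 3, and the share on the right stays below 1% in every library.

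Other genes of the HSP70 system were taken from lists written from textbook knowledge: further HSP70 proteins, J-domain proteins, nucleotide exchange factors, adaptors, heat shock factors and other HSF1 targets. Of these 88 genes, 78 passed the level filter, of which 60 had a higher and 18 a lower mean in KO livers (66.7% of all tested genes were higher), with a median log2 fold change of 0.33. An unadjusted p under 0.05 was reached by 16 with higher and 1 with lower levels (8.45% and 2.04% of all tested genes), and 0 passed the adjusted threshold in limma. The KO values lay wholly above the WT values in 41 of the 78 genes (34.4% of all tested genes) and wholly below them in 8 (10.9% of all tested genes). All these lists were drawn up with earlier results of these data known, so the counts are not an independent test. The study picked *Hspb1* and *Serpinh1*, which are on the list of HSF1 targets, from these same libraries, so that list is not independent evidence. Its picks from them also included *Hspa1b* itself and *Lpin1*, a gene named further below.

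The other HSF1 targets had the highest median of these lists. All 15 of them had a higher mean in KO livers (66.7% of all tested genes), with a median log2 fold change of 0.83, 9 reached an unadjusted p under 0.05 (8.45% of all tested genes) and 6 were at least 2-fold higher (2.59% of all tested genes). *Chordc1*, a co-chaperone of HSP90, measured 4.34, 6.38, 15.9 and 19.4 TPM (log2 fold change 1.56, SE 0.25, adjusted p = 0.290, limma). *Ahsa2*, of the family of HSP90 ATPase activators, measured 8.997, 9.09, 28.7 and 23.4 TPM (log2 fold change 1.42, SE 0.20, adjusted p = 0.188, limma). The groups did not overlap in either gene, and unlike *Hspa1b* and *Hspa8* the WT libraries of *Ahsa2* were nearly equal. Genes past 2-fold also included *Serpinh1*, the collagen chaperone (1.19), *Hspb1*, a small heat shock protein (1.13), and *Hsp90aa1*, the inducible cytosolic HSP90 (1.02), as log2 fold changes. Each of these 3 depended on a library: *Serpinh1* was at 0.81 without KO replicate 1, *Hspb1* at 0.70 without KO replicate 3, and *Hsp90aa1* at 0.55 without WT replicate 2 and 0.71 without KO replicate 3.

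Genes that work directly with HSP70 differed less. Among 60 tested relatives, J-domain proteins, exchange factors and adaptors, 43 had a higher and 17 a lower mean, where 6394 of all 9581 tested genes were higher, with a median log2 fold change of 0.24, and 0 were at least 2-fold higher. Of these 60, 6 reached an unadjusted p under 0.05 with higher and 1 with lower levels (8.45% and 2.04% of all tested genes, limma). Their KO values lay wholly above the WT values in 26 genes (34.4% of all tested genes) and wholly below them in 7 (10.9%). The 38 tested J-domain genes outside the 10 had a median of 0.22, with 28 higher and 10 lower. *Dnajc30*, a mitochondrial J-domain protein, had the lowest p among the genes with lower levels, at 15.3, 14.7, 10.4 and 10.5 TPM (log2 fold change −0.48, SE 0.19, adjusted p = 0.472, limma). It was followed by *Sil1*, the exchange factor of the HSP70 of the endoplasmic reticulum (log2 fold change −0.40), and *Dnlz*, which assists the mitochondrial HSP70 (−0.35).

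The 9 exchange factors outside the 10 genes had a median of −0.00, with 4 higher and 5 lower. *Hspa5*, the HSP70 of the endoplasmic reticulum, measured 260, 256, 274 and 478 TPM, so that its log2 fold change of 0.49 rested largely on KO replicate 3 and was 0.09 without it. The adaptors had a median of 0.36, with 7 of 9 higher.

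Transcripts of the heat shock factors themselves were low. *Hsf1* measured 2.96, 3.57, 5.01 and 6.998 TPM, with non-overlapping groups (log2 fold change 0.71, SE 0.26, adjusted p = 0.465, limma). *Hsf2* measured 3.11, 4.86, 5.99 and 5.61 TPM (log2 fold change 0.47, SE 0.27, adjusted p = 0.542, limma). *Hsf4*, the third of them, had lower values in both KO livers, at 2.71, 3.26, 1.99 and 2.15 TPM (log2 fold change −0.37, SE 0.25, adjusted p = 0.589, limma). The level of *Hsf1* RNA does not show whether the protein was active, since HSF1 is known to be controlled after translation.

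**Figure D5:**
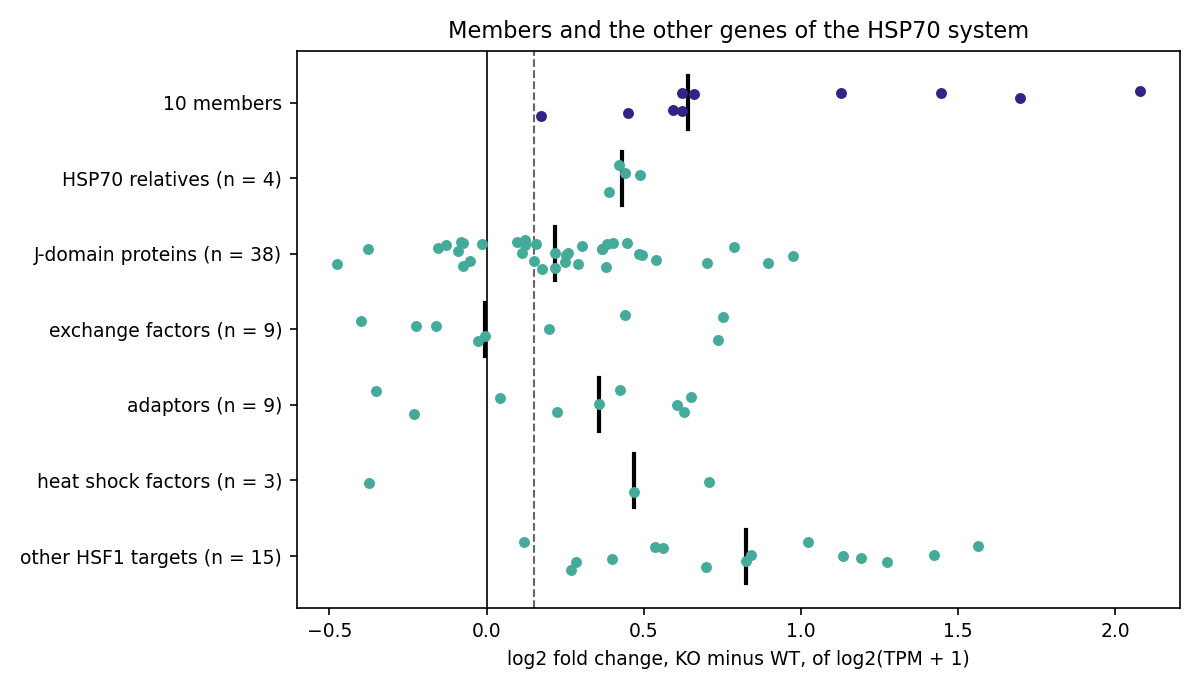
Log2 fold change (KO minus WT, horizontal axis, on log2(TPM + 1)) of the 10 genes (dark blue) and of the tested genes of 6 further lists of the HSP70 system (green), 1 point per gene with the median as a black line. The median is 0.83 for the other HSF1 targets and −0.00 for the exchange factors, and the dashed line is the median of all tested genes, 0.15.

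Outside the lists, the 5 genes whose levels over the 4 libraries were nearest to those of *Hspa1b* were *Gm21596*, *Mbd1*, *Lpin1*, *Nfil3* and *Igfbp1*. Likeness was measured as the root mean square difference of log2(TPM + 1) over the 4 libraries after each gene's mean was taken off, and it ran from 0.277 to 0.378 for these genes. *Hsph1* was at 0.326 and *Hspa8* at 0.406 on the same measure, so that *Hsph1* was among the nearest. The order of *Hspa1b* over the 4 libraries was followed by 563 of the tested genes.

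Other groups of genes also differed between the libraries, in orders other than that of *Hspa1b*. Of 9 tested genes of the circadian clock, 3 had a higher and 6 a lower mean in KO livers. *Dbp*, a clock output gene, measured 56.8, 41.3, 4.73 and 4.97 TPM (log2 fold change −3.08, SE 0.23, adjusted p = 0.0193, limma), and *Bmal1*, a core clock activator, measured 0.241, 0.243, 5.89 and 4.05 TPM (log2 fold change 2.25, adjusted p = 0.154, limma). *Per1* had a log2 fold change of −0.86, whereas *Per2* overlapped between groups at 0.427, 1.12, 0.467 and 0.644 TPM. Heat shock genes are known to vary over the day, and the part of the time of collection in the values of *Hspa1b*, *Hspa8* and *Hsph1* was not tested.

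*Rbm3*, which is known to be induced by cold, measured 52.2, 47.8, 37.5 and 18.8 TPM (log2 fold change −0.89, SE 0.33, adjusted p = 0.468, limma). Its order was opposite to that of *Hspa1b*, *Hspa8* and *Hsph1*, and the share of all tested genes in this opposite order was not counted. The other cold-inducible gene, *Cirbp*, measured 11.8, 5.30, 11.1 and 5.51 TPM and overlapped between genotypes. The part of body temperature in the levels of the chaperone genes was not tested. Immediate early genes, which respond to handling of tissue, were mixed: 4 of the 5 tested overlapped between genotypes, as did 5243 of all 9581 tested genes, and *Junb* was highest in WT replicate 3, at 6.76, 55.6, 17.0 and 8.57 TPM. *Dusp1*, the 1 that did not overlap, was higher in both KO livers, at 4.16, 6.39, 12.0 and 9.50 TPM (log2 fold change 0.92, SE 0.27, adjusted p = 0.464, limma).

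Markers of other cell types in the liver were also summed per library. Those of stellate cells were at 41.4 to 53.5 TPM in WT and 60.0 to 77.5 TPM in KO livers, and all 5 were above 0 in at least 1 library. Those of cholangiocytes were at 1.39 to 3.19 and 3.82 to 4.56 TPM, with all 4 likewise above 0, and those of hepatocytes at 58174 to 74351 and 50879 to 60624 TPM. Lymphocyte markers were lower in both KO livers (3.10 to 3.40 TPM in WT and 1.85 to 2.64 TPM in KO, all 5 likewise above 0), and so were erythroid markers (832 to 865 and 669 to 812 TPM, all 4 likewise above 0). None of the 5 lymphocyte markers passed the level filter. Among single markers that passed it, 2 of 4 stellate, 2 of 4 erythroid and the 1 cholangiocyte marker overlapped between genotypes, as did 5243 of all 9581 tested genes. Kupffer cell (86.2 to 97.2 and 50.3 to 132 TPM) and endothelial markers (31.6 to 40.7 and 33.6 to 49.6 TPM) overlapped between genotypes. Neutrophil markers stood out in WT replicate 3 alone, at 44.8 TPM, compared with 1.85 to 4.16 TPM in the other 3 libraries. The part of these cell types in the levels of the chaperone genes was not tested.

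A second deposited table, of scaled read counts (CPM), could not serve as a check for most of these genes. It listed 7 of the 10 at 0 in all 4 libraries, including *Hspa8*, as it did 428 of the 682 genes that had at least 100 TPM in every library. Recovered reads per library numbered only 102898 to 148164. *Dnaja1* had 8, 6, 7 and 5 reads in it, and its log2 fold change there had the opposite sign, at −0.32 with both limma on the CPM and edgeR on the recovered reads and −0.35 with DESeq2. *Dnajb1* (0, 0, 1 and 1 reads) and *Hspa4* (1, 4, 0 and 0 reads) were at or near the limit of 3 reads that a count of 0 allows in a library, so that no fold change is given for them.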

How the data were processed

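Liver RNA-seq of 2 WT and 2 *Usp21* KO mice was taken from 4 deposited tables, and samples were grouped by their labels. The authors estimated abundances with Salmon (build mm10) and deposited them as TPM for 35739 genes, together with their log2(TPM + 1). Reads had also been counted by the authors with HTSeq and deposited as TMM-normalized CPM with a log2 version, here treated as a count-based signal. Versions, annotation release and strand setting are not given in the sources used here. TPM keeps no depth, so the precision of a single value is unknown. In the CPM table, 100% of values were whole reads within 0.02 reads, which gave 102898 to 148164 recovered reads per library, where a count of 0 allows up to 3 reads (20.0 to 27.7 CPM, counting error only).

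The 10 members and all gene lists were chosen with earlier results of these data known. The 9581 genes that averaged 1 TPM or more were tested on log2(TPM + 1) with limma 3.58.1 in R 4.3.3 (eBayes with trend, two-sided, Benjamini-Hochberg adjustment, prior degrees of freedom 3.62), without covariates. With 2 libraries per genotype, a p-value leans on variances shared between genes, measures only the spread between these mice, and an exact permutation test could not go below 0.333. No p is given for a member. The genes named were all members, *Usp21*, *Hsf1*, *Hsf2*, the HSP70 system genes past a threshold or 2-fold or with the 3 lowest p per direction, the 5 genes nearest to *Hspa1b*, and *Dbp*, *Bmal1* (listed earlier as *Arntl*), *Per1*, *Per2*, *Rbm3* and *Cirbp*. One gene that this rule names is not reported here. *Gm15542*, *Gm15459*, *Hspa1l*, *Hspa5*, *Hsf4*, *Dusp1* and *Junb* were named after their values were seen. Alternatives were pseudocounts of 0.1 and 5, no filter, a mean of at least 5 TPM, upper quartile scaling, no moderation, limma on the CPM, edgeR 4.0.16 and DESeq2 1.42.0 on the recovered reads (5146 genes), other class assignments, members summed with near-identical copies (added after seeing the data), and each library left out in turn. On the recovered reads, edgeR called 12 genes and DESeq2 1 gene at an adjusted p under 0.05. Near-identical copies are genes that share at least 10% of a member's 31-base stretches in the GENCODE M21 transcripts. Coding sequences were aligned with Biopython 1.88. Scripts were tested on simulated data.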

Additional observations from a re-analysis of the deposited data

How the results depend on the processing

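Of 105 alternative values for the log2 fold changes of the 10 members, 102 kept their direction, of which 4 moved by at least the pooled SD. The alternatives on the filter and on moderation leave each log2 fold change unchanged, so they could not alter its direction. In the 9 members with both KO values above both WT values, a pseudocount or a library left out could not reverse it either. Most of the 102 were thus fixed by the separation of the groups, and nothing is read from that count. Among the members, the CPM table was used for *Dnaja1* alone, so *Hspa4*, with 1, 4, 0 and 0 reads there, was not counted. The 3 that reversed were those of *Dnaja1* in the CPM table (−0.32 with limma, −0.32 with edgeR and −0.35 with DESeq2), where it had 5 to 8 reads per library. The summed *Hspa1a* and *Hspa1b* had a log2 fold change of 1.29 with a pseudocount of 5, and the difference between inducible and constitutive members was 0.68 with *Hspa8* counted as inducible. Over all genes, the 8 with an adjusted p under 0.05 became 4 without a filter, 0 without moderation, 1 with limma on the CPM, 1 with DESeq2 and 0 to 0 with 1 library left out. The 353 genes changed at least 2-fold became 820 with a pseudocount of 0.1, 115 with 5, 203 with a mean of at least 5 TPM, 3134 with the CPM, 2915 with edgeR, 3018 with DESeq2 and 463 to 695 with 1 library left out. The 6 HSP70 system genes past 2-fold became 10 with a pseudocount of 0.1, 3 with 5, 18 with the CPM, 17 with edgeR and 17 with DESeq2. The cause of these changes was not tested. No paired analysis was possible because the genotypes share only the replicate number 3.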
